A study of Mus musculus with 6 samples.

Results

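The genes described here encode the receptor machinery by which absorptive epithelium takes up proteins from the lumen. They are Cubn, Amn, Lrp2, Lrpap1 and Dab2, matched by gene identifier and symbol, and they make up 5 of the 55335 genes in the deposited count table. They were named with differences between the genotypes in view, so their values in that contrast are given as a description without a test. RNA-seq was run on intestinal tissue of Trmt6-/- mice and wild-type (WT) mice, 3 of each, all with colitis induced by DSS (dextran sulfate sodium), which damages the gut lining. Trmt6 encodes the non-catalytic subunit of a tRNA methyltransferase. Strain, age, segment, and the kind of allele were not given in the sources used here. The table names the first 3 libraries KO72, KO73, KO75, called KO-labelled below, and the others WT185, WT186, WT187. Values of 3 libraries are always given in that order.

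Cubilin, encoded by Cubn, is a large extracellular receptor without a membrane anchor of its own. Amnionless, encoded by Amn, is the transmembrane protein that carries cubilin to the apical surface and holds it there. In the ileum the pair binds the complex of intrinsic factor and cobalamin, and in the kidney it retrieves filtered proteins together with megalin, encoded by Lrp2. Lrpap1 encodes an endoplasmic reticulum chaperone of megalin and related receptors. DAB2 is a clathrin adaptor that binds short motifs in the cytoplasmic tails of amnionless and megalin and draws them into coated pits.

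Library totals ran from 15213972 to 16972758 counts, where a count is a read pair assigned to a gene, and 14107 genes were abundant enough to test. Trmt6 itself stood at 39.8, 34.2 and 36.2 CPM (read counts scaled to library size, with TMM factors) in the KO-labelled libraries, against 30.9, 18.7 and 23.1 CPM in the WT libraries. It was thus not lower in the KO-labelled libraries, and directions below rest on the labels. Absorptive cell transcripts were abundant in all 6 libraries. Anpep, a brush border peptidase gene, averaged 7984 ± 2098 CPM in the KO-labelled libraries and 6169 ± 798 CPM in WT libraries, and Vil1, which encodes the microvillus protein villin, averaged 2924 ± 608 and 2896 ± 1122 CPM (SD, n = 3 each). Values with ± are mean and SD over 3 libraries throughout, KO-labelled before WT, except log2 fold changes, which are estimate and SE and positive where the KO-labelled libraries were higher. In these bulk samples, fewer cells of a type and less RNA per cell cannot be told apart.

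Of the 5 genes, Dab2 alone separated the groups. Cubn varied more between libraries of the same group than between the groups, Amn and Lrpap1 overlapped between the groups, and Lrp2 was close to absent. Of the 4 that passed the expression filter, 0 were called at an adjusted p below 0.05 by edgeR, where 0.0425% of all genes tested were called. Groups without overlap occurred in 1 of the 4, in the higher direction. Of all genes tested, 9.70% showed this in the higher direction and 18.7% in either direction. Since the genes were chosen on this contrast, neither count bears on them further.

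**Figure D1:**
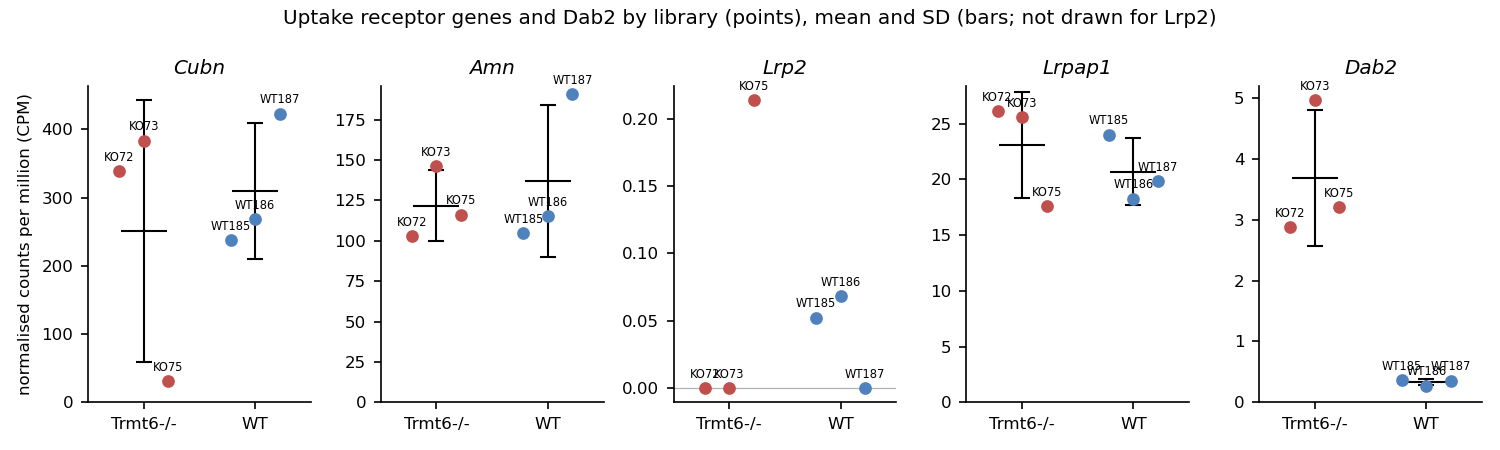
Normalised CPM (vertical axes, each starting at 0) of the 5 genes in each library (points), with the group mean and SD (bars, n = 3, not drawn for Lrp2); KO-labelled libraries stand left of WT. Dab2 lies between 2.88 and 4.96 CPM in the KO-labelled libraries and at or below 0.365 CPM in WT, and Cubn is low in KO75 alone.

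Cubn (ENSMUSG00000026726.10; GRCm38 chromosome 2, 13276338 to 13491813, minus strand) was measured at 339, 383 and 30.8 CPM in the KO-labelled libraries, against 237.5, 268.5 and 423 CPM in the WT libraries. KO75 was the low library, with 433 counts where the other 5 had 3936 to 7057, and the remaining libraries of the 2 groups overlapped. The fitted log2 fold change of Cubn was -0.30 ± 0.78 (estimate ± SE), and without KO75 it was 0.23. On the log2 CPM scale its SD was 2.05 in the KO-labelled libraries and 0.44 in WT. The pooled within-group SD of 1.48 was larger than that of 98.5% of the 14107 genes tested, whose median was 0.35. KO75 lay at least 4-fold below each of the other 5 libraries for 99 genes (0.702% of those tested), while for the other libraries the number of such genes ran from 21 in KO73 to 103 in WT186. Of these 99, chosen after their values were seen, 5 averaged at least 50 CPM. Cubn was one, 7.71-fold below the next lowest library, and Olfm4, a gene of crypt stem cells, was another at 9.18 CPM in KO75. The others were Gm8979, 9130208D14Rik and Gm42047.

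Amn (ENSMUSG00000021278.7; chromosome 12, 111271095 to 111276426, plus strand), the partner of cubilin, did not share the low value in KO75. It stood at 103, 146 and 116 CPM in the KO-labelled libraries, against 105, 115 and 191 CPM in the WT libraries. WT187 was the high library and the groups overlapped (log2 fold change -0.17 ± 0.27). Per length, as TPM computed from the counts and the exon length of each gene, Amn was above Cubn in every library. The ratio of Cubn to Amn in TPM was 0.406, 0.323 and 0.0327 in the KO-labelled libraries, against 0.280, 0.287 and 0.274 in the WT libraries. It was thus nearly the same in the 3 WT libraries, while KO72 and KO73 lay above and KO75 far below them.

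**Figure D2:**
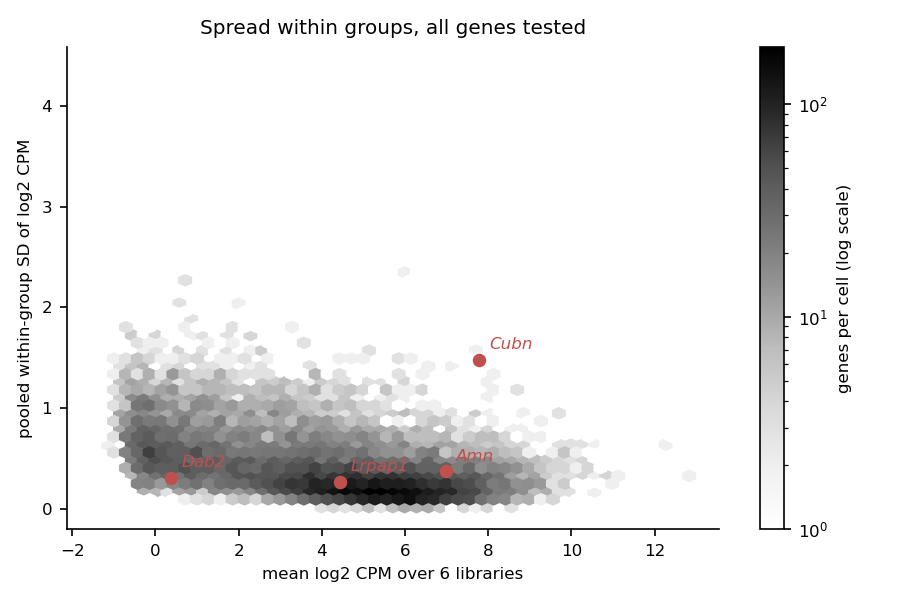
Pooled within-group SD of log2 CPM (vertical axis) against mean log2 CPM over the 6 libraries (horizontal axis) for the 14107 genes tested (grey cells, darker where more genes fall), with the 4 genes tested here in red. Cubn, at an SD of 1.48, lies far above most genes of its abundance, whereas Dab2 (0.31), Amn (0.37) and Lrpap1 (0.27) lie far lower than Cubn. The value of Dab2 rests in part on few counts in WT.

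The starts of Cubn and Amn are shown to set the 2 partners side by side, from the RefSeq table for GRCm38.p6, each read toward its start site and ending before the first annotated exon base. Capitals mark matches, on either strand, to CAAAG (part of the site of HNF4, a factor of enterocytes), GATAA (the core bound by GATA factors), CACGTG (an E-box), TTTATNG (bound by CDX factors) and TGATGNAA (bound by ATF4).
Cubn, chr2:13491877-13492126, minus strand: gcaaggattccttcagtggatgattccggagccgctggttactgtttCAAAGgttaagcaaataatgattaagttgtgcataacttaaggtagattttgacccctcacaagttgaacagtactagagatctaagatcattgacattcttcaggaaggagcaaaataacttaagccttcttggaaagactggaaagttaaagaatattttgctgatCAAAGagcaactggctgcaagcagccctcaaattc
Amn, chr12:111270846-111271094, plus strand: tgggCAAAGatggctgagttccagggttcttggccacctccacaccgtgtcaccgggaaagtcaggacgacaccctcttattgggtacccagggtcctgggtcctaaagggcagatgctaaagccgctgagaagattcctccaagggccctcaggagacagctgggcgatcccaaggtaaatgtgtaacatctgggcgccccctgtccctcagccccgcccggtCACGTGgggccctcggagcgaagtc
Cubn held CAAAG at 2 places and none of the other letters. Amn held it once and CACGTG once, on a window of 61.2% G and C against 39.6% for Cubn. CAAAG stood in 48.6% of the 32851 promoter windows of 250 bases in the table, CACGTG in 6.02% and TTTATNG in 9.81%. The longer HNF4 site CAAAGTCCA, present in 0.384% of windows, was in neither. These are matches of letters and not sites shown to be bound.

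Cubn is often described as an ileal gene, and its level was set beside markers of position. Fabp6, which encodes the ileal bile acid binding protein, stood at 341, 267 and 16.7 CPM in the KO-labelled libraries, against 543, 2.59 and 0.120 CPM in the WT libraries. Slc10a2, which encodes a sodium-dependent bile acid importer of the ileum, was measured at 412, 283 and 62.8 CPM, against 224, 3.14 and 0.659 CPM. In the KO-labelled libraries, KO75 was lowest for all 3 genes. In WT the order was the opposite, since WT187 had the highest Cubn and the lowest Fabp6 and Slc10a2. Fabp6 and Slc10a2 were thus low in WT186 and WT187, where Slc51a, a bile acid exporter subunit gene, still stood at 236 and 173 CPM.

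The other ileal markers were the bile acid exporter subunits Slc51a (500 ± 60.4 against 254 ± 91.9 CPM) and Slc51b (88.5 ± 12.2 against 43.9 ± 11.6 CPM), the hormone gene Fgf15 (at most 3.61 CPM) and the nuclear receptor gene Nr0b2 (at most 4.64 CPM). Of the 6 ileal genes 5 were tested, all with a fold change above 0, and their summed level ran from 611 to 1356 CPM in the KO-labelled libraries and from 208 to 1169 CPM in WT. Of the 6 proximal markers, 5 lay below 0. These were the transcription factor genes Gata4 (116 ± 28.9 against 214 ± 57.5 CPM) and Onecut2 (27.5 ± 20.4 against 156 ± 105 CPM), the lactase gene Lct (518 ± 349 against 2180 ± 1269 CPM), the ferric reductase gene Cybrd1 and the iron exporter gene Slc40a1. Fabp1, a fatty acid binding protein gene, averaged 1498 ± 1332 against 1299 ± 1148 CPM. Their summed level ran from 528 to 3751 CPM in the KO-labelled libraries and from 1620 to 6631 CPM in WT. None of the 11 tested was called at an adjusted p below 0.05. At an unadjusted edgeR p below 0.05 there were 2 ileal genes higher and 4 proximal genes lower, and DESeq2 called 1 of each list in those directions. The part of position in the values of Cubn was not tested beyond a covariate. With an index of ileal over proximal markers as covariate, the fitted log2 fold change of Cubn was -1.25, given without an SE. That index ran from -3.67 to 0.611 in the KO-labelled libraries and from -7.41 to -1.69 in WT. The index was thus mostly lower in WT, and with 3 libraries a group the fit cannot separate position from genotype. No larger difference in Cubn is read from it.

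**Figure D3:**
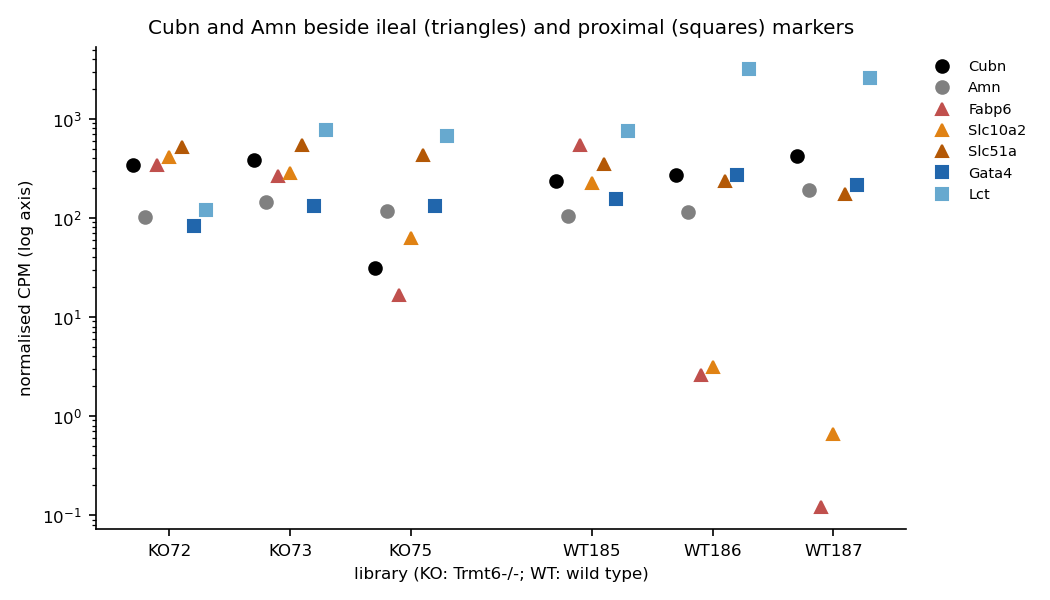
Normalised CPM on a log axis of Cubn and Amn (circles), of the ileal markers Fabp6, Slc10a2 and Slc51a (triangles) and of the proximal markers Gata4 and Lct (squares) in each library, with the KO-labelled libraries left of WT. Fabp6 is at 0.120 CPM in WT187, where Cubn is at 423 CPM, its highest value.

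Dab2 (ENSMUSG00000022150.16; chromosome 15, 6299788 to 6440712, plus strand) was the least abundant of the genes tested here. It had 51, 71 and 45 counts in the KO-labelled libraries, against 7, 4 and 6 counts in the WT libraries. These are 2.88, 4.96 and 3.20 CPM against 0.365, 0.273 and 0.360 CPM, so that every KO-labelled library was above every WT library. Exact 95% counting intervals reached no lower than 2.14 CPM in the KO-labelled libraries and no higher than 0.783 CPM in WT. The group means were 3.68 ± 1.12 and 0.332 ± 0.0516 CPM (SD, n = 3 each), a log2 fold change of 3.43 ± 0.42. The ratio of summed counts, 167 against 17 and scaled by library size, was 10.8. The counting intervals cover counting error within a library only and leave out the spread between libraries. They also take each count as separate, although PCR copies were not told apart by molecular identifiers. A fitted log2 fold change of 3 or more was reached by 0.397% of all genes tested. Leaving out any 1 library gave 3.16 to 3.58 for Dab2. Since Dab2 was chosen on this contrast, this share, this range and the counting intervals describe its difference and do not test it. The pooled within-group SD of Dab2 on the log2 CPM scale was 0.31, where the median of all genes was 0.35. The SD was 0.40 in the KO-labelled libraries and 0.17 in WT. The WT value rests on 7, 4 and 6 counts, where the prior count of 2 used for log2 CPM narrows the spread. The pooled SD is thus no measure of how reproducible Dab2 was.

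Dab2 has 2 start sites in the RefSeq table, and counts per gene cannot show which was used. Both are shown in the same way as above, up to the first annotated exon base.
Dab2 upstream start, chr15:6299539-6299787, plus strand: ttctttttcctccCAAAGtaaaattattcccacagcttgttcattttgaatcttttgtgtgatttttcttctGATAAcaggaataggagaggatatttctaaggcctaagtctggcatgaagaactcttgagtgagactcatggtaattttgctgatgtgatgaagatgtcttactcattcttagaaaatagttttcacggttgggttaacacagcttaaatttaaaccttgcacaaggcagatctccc
Dab2 downstream start, chr15:6386498-6386597, plus strand: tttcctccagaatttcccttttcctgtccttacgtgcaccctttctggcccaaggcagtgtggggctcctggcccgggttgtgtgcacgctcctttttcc
The upstream start is poor in G and C (36.8% over its 250 bases) and the downstream start is rich (60.0%). The upstream window held CAAAG once and GATAA once, the second of which stood in 22.6% of all windows. The downstream window held none of the letters searched, and neither held TGATGNAA, which stood in 3.45% of windows.

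DAB2 is also made by macrophages, endothelium and other stromal cells, whose markers were measured beside it. The 7 endothelial genes summed to 12.2 to 17.5 CPM in the KO-labelled libraries and to 8.86 to 9.59 CPM in WT, and 3 of the 7 were tested, all above 0 in fold change. Lyve1, a lymphatic endothelial gene, had the highest level of the 7 on average at 7.30 ± 2.02 against 4.69 ± 0.944 CPM, and Prox1, a transcription factor gene of lymphatic endothelium, stood at 4.22 ± 1.46 against 2.82 ± 0.856 CPM. The defining endothelial genes Cdh5, Kdr and Cldn5 had 6, 13 and 13 counts in KO73, the library with the most Dab2 counts, 0 counts in KO72 and KO75, and at most 3 in a WT library. The 9 macrophage genes summed to 5.10 to 13.8 CPM against 5.58 to 21.2 CPM, and 4 of the 5 tested lay below 0. The scavenger receptor gene Cd163 had 0 counts in all 6 libraries, and Adgre1, which encodes F4/80, had at most 10. Lyz2, a lysozyme gene, stood at 2.38 ± 1.65 against 4.03 ± 1.79 CPM, and Cd68, a lysosomal membrane protein gene, at 1.13 ± 0.650 against 2.02 ± 1.99 CPM. The tested macrophage gene above 0 was Mrc1, at 2.90 ± 1.08 against 2.28 ± 2.05 CPM. The 7 fibroblast genes summed to 2.31 to 8.38 CPM against 5.81 to 7.57 CPM, with the matrix genes Dcn at 5.21 ± 3.02 against 3.47 ± 0.562 CPM and Col3a1 at 0.399 ± 0.347 against 1.34 ± 0.0423 CPM. Of the 7 proximal tubule genes, 4 had 0 counts in every library and the rest summed to 0.978 CPM at most, with the phosphate transporter gene Slc34a1 at 0.661 ± 0.266 against 0.276 ± 0.257 CPM. The part of these cells in the values of Dab2 was not tested further.

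Another adaptor that binds the same kind of tail motif was set beside Dab2 per length, chosen after its values were seen. Dab1, the paralogue known from reelin signalling, was measured at 26.2, 36.5 and 33.6 TPM in the KO-labelled libraries, against 29.8, 55.0 and 50.4 TPM in the WT libraries. Its level per length exceeded that of Dab2 by ratios of 19.0, 19.0 and 27.7 in the KO-labelled libraries, against 164, 479 and 290 in WT. Dab2 thus stayed below Dab1 in all 6 libraries.

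Lrp2 (ENSMUSG00000027070.14; chromosome 2, 69424340 to 69586065, minus strand), the megalin gene, had 0, 0 and 3 counts in the KO-labelled libraries, against 1, 1 and 0 counts in the WT libraries. All 6 values lie at or under the 3 counts that a count of 0 allows, which are 0.169 to 0.213 CPM in the KO-labelled libraries and 0.156 to 0.205 CPM in WT. No fold change is given for it, and a difference was not detectable at this depth.

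Lrpap1 (ENSMUSG00000029103.16; chromosome 5, 35091501 to 35105766, minus strand), the receptor chaperone gene, was measured at 26.1, 25.6 and 17.6 CPM in the KO-labelled libraries, against 24.0, 18.3 and 19.8 CPM in the WT libraries. The groups overlapped, with KO75 the lowest library, and the log2 fold change was 0.16 ± 0.22. Per length it stood at 11.9 to 22.4 TPM over the 6 libraries, above Dab2 and below Amn in each.

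In order of level per length, Amn came first at 176 to 367 TPM over the 6 libraries, followed by Cubn at 55.5 to 100.5 TPM in all but KO75, Lrpap1, Dab2 and Lrp2. The ranges of neighbours in that order did not overlap apart from KO75, in which Cubn (5.75 TPM) lay below Lrpap1 (11.9 TPM). Dab2 stood at 1.38, 1.92 and 1.22 TPM in the KO-labelled libraries, against 0.182, 0.115 and 0.174 TPM in the WT libraries. Lrp2 reached at most 0.0356 TPM.

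**Figure D4:**
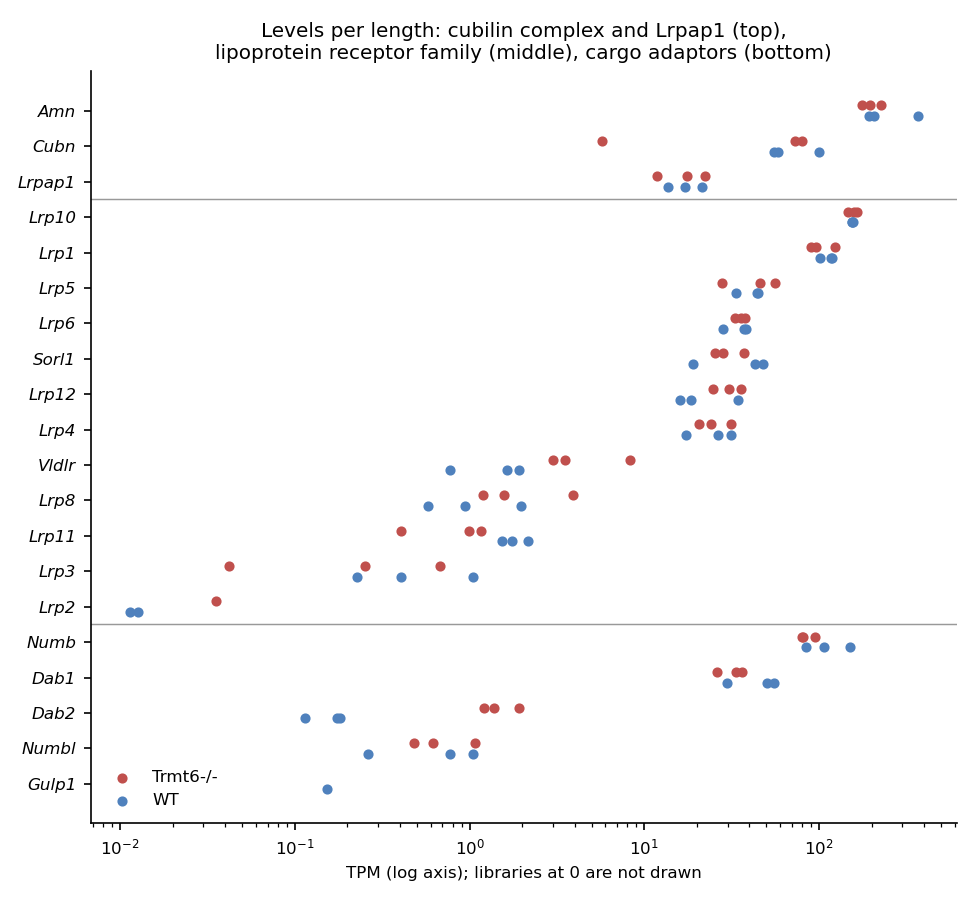
TPM on a log axis of the cubilin complex and Lrpap1 (top block), the lipoprotein receptor family (middle block) and cargo adaptors (bottom block) in each KO-labelled library (red, upper row of each gene) and WT (blue, lower row); libraries at 0 are not drawn. The adaptors drawn are Numb, Dab1, Dab2, Numbl and Gulp1, and Dab2 lies at 1.22 to 1.92 TPM against 0.115 to 0.182 TPM.

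The gene whose pattern was closest to each was found by the root mean square difference of log2 CPM, centred per gene, over the 6 libraries and among genes averaging at least 5 CPM. For Dab2 the 5 closest were Zfp791, Wtip, Mt1, Atf5 and Ret, at differences of 0.27 to 0.45. The zinc finger gene Zfp791 stood at 7.34, 9.43 and 9.61 CPM in the KO-labelled libraries, against 1.30, 1.09 and 1.498 CPM in the WT libraries. For Cubn the closest was Strip2, at a difference of 0.45 and with 10.6, 10.3 and 1.21 CPM against 8.86, 7.37 and 6.71 CPM. Dach1, Depdc1a, Akr1c14 and Shisa2 followed at 0.57 to 0.61, larger differences than those of the genes closest to the other 3. The closest to Amn was Gata5, a transcription factor gene of the intestine, at a difference of 0.099 and with 80.2, 97.7 and 95.2 CPM against 79.4, 93.9 and 140.5 CPM. Prag1, Slx4, Gpc4 and Arid3b came next to Amn at up to 0.16. For Lrpap1, the closest 5 were Sowahc, Spata13, Lin54, Mrtfb and Nfyb, at 0.064 to 0.072.

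The rest of the uptake pathway was described from 8 lists holding 157 genes, of which 143 were tested. By edgeR 0 of the 143 were called at an adjusted p below 0.05. At an unadjusted p below 0.05 there were 12 higher and 6 lower, together 12.6%, against 12.1% of all genes tested (6.15% higher and 5.94% lower). DESeq2 called 9 of the 143 at an adjusted p below 0.05, where it called 633 of all 14107 genes. With limma-voom 0 were called, also over all genes. The median log2 fold change of the 143 was 0.0098, against -0.033 over all genes tested.

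Of the lipoprotein receptor family, to which megalin belongs, 10 of 12 other genes described were tested, 8 above 0 and 2 below (median 0.21), and 1 was higher at an unadjusted p below 0.05. The 2 most abundant per length were Lrp10, at 232 ± 28.0 against 204 ± 19.8 CPM, and Lrp1, a broad endocytic receptor, at 609 ± 146 against 586 ± 91.4 CPM. The 1 at an unadjusted p below 0.05 was the VLDL receptor gene Vldlr (15.7 ± 6.97 against 4.17 ± 1.46 CPM, 1.90 ± 0.42), named after its values were seen. Vldlr was among the 9 called by DESeq2. Of 16 other endocytic receptors 12 were tested, with a median of -0.083, and 3 were lower at an unadjusted p below 0.05. Pigr, the receptor that carries immunoglobulin A to the lumen, stood at 2256 ± 315 against 7598 ± 2420 CPM (-1.75 ± 0.36), and Tfrc, the transferrin receptor gene, at 646 ± 152 against 652 ± 235 CPM. Scarb1 and Fcamr were the other 2, and DESeq2 called all 3.

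Coat, endosome and lysosome genes had list medians near 0. Of 28 clathrin coat and adaptor genes tested, 2 were higher at an unadjusted p below 0.05 and 0 lower (median 0.0087). The clathrin heavy chain gene Cltc stood at 903 ± 109 against 873 ± 181 CPM and the epsin gene Epn1 at 379 ± 57.7 against 386 ± 88.4 CPM. Of 32 apical endosome and recycling genes, 1 was higher, the endosomal ATPase gene Ehd4 (61.5 ± 15.8 against 25.0 ± 4.55 CPM, 1.30 ± 0.24; median of the list 0.037). The scaffold gene Slc9a3r1 stood at 895 ± 208 against 967 ± 333 CPM and the early endosome gene Rab5c at 195 ± 31.0 against 219 ± 55.7 CPM. Of 32 lysosomal genes, 6 were higher and 2 lower on the same terms (median -0.051). Lgmn, which encodes the lysosomal protease legumain, stood at 46.1, 68.2 and 96.1 CPM in the KO-labelled libraries, against 23.8, 16.3 and 16.0 CPM in the WT libraries (1.91 ± 0.31). The membrane protein gene Lamp1 stood at 485 ± 51.1 against 508 ± 102 CPM and the saposin precursor gene Psap at 398 ± 8.45 against 444 ± 77.7 CPM. DESeq2 called 1 gene in each of these 3 lists, all higher.

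Cobalamin handling, the known task of the cubilin complex in the gut, showed 0 genes higher and 1 lower at an unadjusted p below 0.05 among 12 tested (median -0.0017). Tcn2, the plasma carrier that takes cobalamin after absorption, stood at 281 ± 64.5 against 358 ± 63.1 CPM, and Mmadhc, an intracellular cobalamin trafficking gene, at 50.4 ± 7.19 against 54.6 ± 0.675 CPM. Gif, the intrinsic factor gene, had 0 to 2 counts in a library. Among 14 secreted ligands of cubilin or megalin, 7 were tested and 1 was higher. Clu, which encodes clusterin, stood at 23.1, 34.2 and 13.0 CPM in the KO-labelled libraries, against 0.729, 4.43 and 0.599 CPM in the WT libraries (3.63 ± 0.83), and DESeq2 called it. Apoa1, the most abundant ligand gene, averaged 6781 ± 2257 against 4710 ± 2300 CPM.

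Enterocyte transcription factors were split evenly, 6 above 0 and 6 below among 12 tested (median 0.017), with 1 higher at an unadjusted p below 0.05. That gene was Nr1h4, the bile acid receptor gene FXR, at 129 ± 8.91 against 57.2 ± 21.3 CPM (1.18 ± 0.26), and DESeq2 called it. Hnf4a stood at 1186 ± 88.4 against 989 ± 135 CPM and Hnf4g at 309 ± 15.7 against 516 ± 253 CPM.

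**Figure D5:**
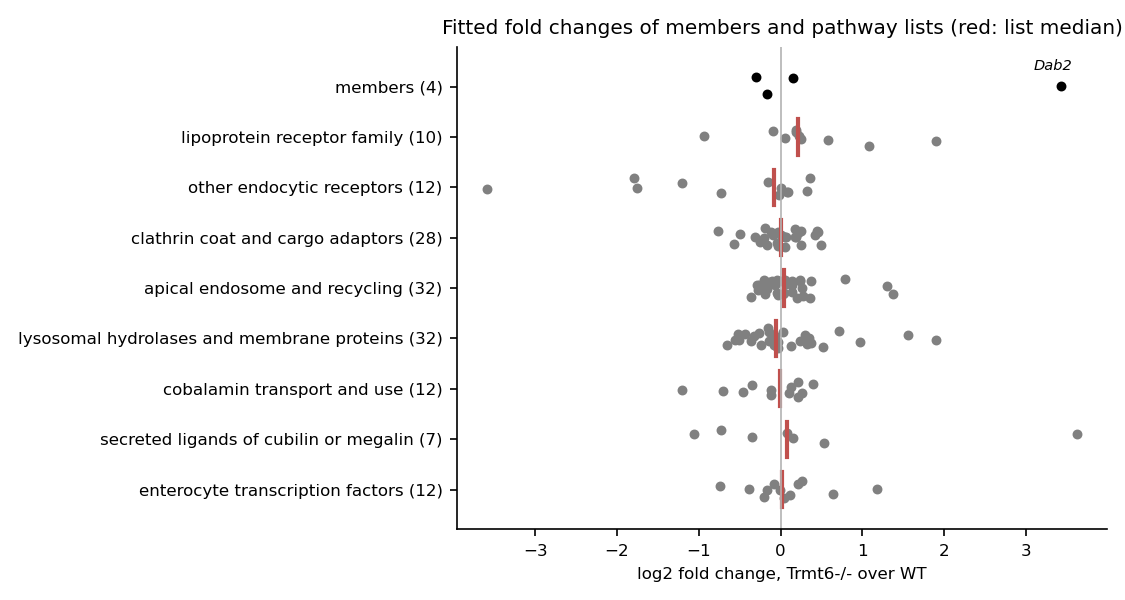
Fitted log2 fold change, Trmt6-/- over WT (horizontal axis), of the 4 genes tested (black) and of every tested gene of the 8 pathway lists (grey, number tested in brackets), with list medians in red. List medians lie between -0.083 and 0.21, and Dab2 stands at 3.43.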

How the data were processed

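Libraries were made with a Vazyme TruePrep kit from amplified cDNA of total RNA, per the labels' protocols. The deposited values are raw counts per gene, made per the file headers with featureCounts 2.0.1 in paired mode over exons of GENCODE M23, with no strand, multimapping or overlap option. The submitters' processing notes name fastp, HISAT2 and mm10. The deposited gene length (unit: other) gave TPM. Columns name a genotype and a number, which is not a replicate number of the labels. No pair of libraries was a duplicate (chi-square per degree of freedom at least 44.1 within groups). Symbols matched 55154 of 55335 identifiers.

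After filterByExpr and TMM scaling, genotype was tested alone, two-sided, by the quasi-likelihood F test in edgeR 4.0.16 under R 4.3.3. Benjamini-Hochberg adjustment covered the 14107 genes kept, and the threshold was 0.05. The method was tested on simulated data in which every gene had the same relative spread between libraries. That is unlike these data, so the simulation does not show which of the methods is right here. P-values set the difference between the groups against the spread between 3 libraries a group, estimated with help from all genes. SE is the log2 fold change over the square root of F, and log2 CPM used a prior count of 2. Alternatives were RLE, upper-quartile and no scaling, DESeq2 1.42.0, limma-voom (limma 3.58.1), other filters, each library left out, and the covariate. The covariate is a difference of mean log2 CPM between 4 ileal genes (Slc10a2, Fabp6, Slc51b, Fgf15) and 4 proximal genes (Lct, Fabp1, Gata4, Cybrd1).

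The genes and lists were chosen with earlier results of these data known, and 3 genes of the lists are not reported here and entered no list count or sum. Named were the 5 genes, Trmt6, positional markers and the genes closest in pattern. Since edgeR called 0 genes of the lists, the rule for each list was its 2 highest by mean TPM. Other list genes were named after their values were seen, such as Vldlr, Scarb1, Fcamr, Ehd4, Lgmn and Nr1h4. They were named for an unadjusted p below 0.05, and not all genes past it are named. Exons of Dab2 and Cubn share 211 and 368 bases with opposite-strand genes, Gm18888 (0 counts) and Gm13270 (at most 5 counts in a library), by GENCODE M21.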

Additional observations from a re-analysis of the deposited data

How the results depend on the processing

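No paired analysis was possible because the columns of the count table carry no replicate numbers. Of 14107 genes, 6 were called in the fit reported. The number was 0 with library totals, with limma-voom and with the ileal index as covariate, 159 without a low-count filter and 633 with DESeq2, and it ran from 0 to 6 when each library was left out in turn. Pathway genes called were 0, but 9 with DESeq2 and 5 without a low-count filter. The fold change of Dab2 ran from 3.31 to 3.46 over the 8 other settings and from 3.16 to 3.58 over the 6 fits without a library. That of Cubn ran from -1.25 to -0.28 and from -0.75 (without KO73) to 0.23 (without KO75), and that of Amn from -0.25 to 0.054 and from -0.32 to 0.13. Lrpap1 ran from 0.061 to 0.32 without a library, and moved to -0.19 with the ileal index as covariate. The cause was not tested. The median ratio of Cubn to Amn was 0.283 per length and 2.30 in CPM, since CPM takes no account of the longer Cubn transcript. Depth limits Lrp2, and the 4 to 7 counts of Dab2 in WT libraries.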
